A study of Mus musculus with 11 samples.

Results

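Interferon-stimulated genes were followed in sorted LSK cells of the mouse bone marrow, a fraction without lineage markers that carries Kit and Sca-1 and holds stem cells and early progenitors. The set has 41 genes, named by symbol as genes that interferons are known to induce, out of 22021 genes with a single symbol on the array. Each gene was read from its row on the Affymetrix Mouse Gene 1.0 ST array, taking the row of highest mean for the 2 genes with a second row (Irf1 and Ifitm1). The groups were KLF5 KO mice (4 arrays, knockout replicates 2 to 5) and KLF5 WT mice (5 arrays, wild-type replicates 2 to 6), normalized together on the log2 scale. A second table holds 1 further array of each genotype, knockout replicate 1 and wild-type replicate 1, and was normalized apart. All mice were of the C57BL/6 strain, and per the labels both genotypes carry the Cre transgene written MxlCre there, known as Mx1-Cre. Its promoter is that of the mouse Mx1 gene, itself an interferon target, so Cre is made in many tissues of an animal in which interferon acts and not in blood cells alone. Whether and when an inducer of interferon was given, the age of the mice, and whether an array holds 1 animal or a pool are not given in the sources used here.

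Type I interferons bind the IFNAR1 and IFNAR2 receptor, whose kinases JAK1 and TYK2 activate transcription factors. The ISGF3 complex, which holds STAT2 and IRF9, binds the interferon-stimulated response element (ISRE) in the promoters of antiviral genes. Type II interferon acts through the gamma-activated site (GAS), and induces IRF1 and the genes of antigen processing. In the marrow, interferon is known to drive resting stem cells into division and to raise Sca-1 on progenitors, so these genes bear both on the state of LSK cells and on the gate that defines them.

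The promoters show which of these routes can be read from sequence, and 9 of those with a match in the 160 bases before the start are printed here, chosen from the antiviral, guanylate-binding and antigen-processing genes described below. RefSeq promoter windows on GRCm38.p6, from 250 bases before to 50 bases after each start, were found for 32 of the 41 genes. The ISRE core, a pair of GAAA half-sites with any 2 bases between, searched on both strands, lay in a window of 14 of these 32 genes (43.8%), against 3.99% of 27025 genes and 3.44% of 32851 windows. The GAS letters TTCNNNGAA, which read alike on both strands, lay in 7 of the 32 (21.9%), against 9.55% of genes and 8.3% of windows. A match is a description of letters and not a shown binding site. In the sequences below, read 5′ to 3′ along the gene's strand and ending at the base before the start, capitals mark matches to either motif, which may overlap each other.
Isg15, chr4:156200819-156200978, minus strand: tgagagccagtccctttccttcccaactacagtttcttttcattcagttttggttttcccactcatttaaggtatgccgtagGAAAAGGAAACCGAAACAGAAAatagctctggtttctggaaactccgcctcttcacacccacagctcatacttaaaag
Ifit1, chr19:34640729-34640888, plus strand: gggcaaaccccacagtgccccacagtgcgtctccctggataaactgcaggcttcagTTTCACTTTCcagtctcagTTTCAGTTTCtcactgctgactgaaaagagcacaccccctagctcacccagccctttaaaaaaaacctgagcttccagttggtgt
Ifit3, chr19:34583369-34583528, plus strand: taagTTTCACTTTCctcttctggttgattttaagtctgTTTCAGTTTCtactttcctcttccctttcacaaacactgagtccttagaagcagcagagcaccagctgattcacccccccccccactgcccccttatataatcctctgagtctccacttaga
Rsad2, chr12:26456453-26456612, minus strand: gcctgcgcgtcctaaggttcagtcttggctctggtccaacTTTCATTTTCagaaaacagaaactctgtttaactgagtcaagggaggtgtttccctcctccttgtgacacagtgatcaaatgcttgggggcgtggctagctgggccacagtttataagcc
Bst2, chr8:71537473-71537632, minus strand: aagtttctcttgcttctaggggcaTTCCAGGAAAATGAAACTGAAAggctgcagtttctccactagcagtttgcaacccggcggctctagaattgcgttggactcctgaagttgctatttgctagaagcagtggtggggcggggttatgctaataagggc
Gbp2, chr3:142620503-142620662, plus strand: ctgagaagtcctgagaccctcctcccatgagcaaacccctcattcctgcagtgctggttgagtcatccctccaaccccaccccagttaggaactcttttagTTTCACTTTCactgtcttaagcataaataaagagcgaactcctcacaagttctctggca
Gbp3, chr3:142559884-142560043, plus strand: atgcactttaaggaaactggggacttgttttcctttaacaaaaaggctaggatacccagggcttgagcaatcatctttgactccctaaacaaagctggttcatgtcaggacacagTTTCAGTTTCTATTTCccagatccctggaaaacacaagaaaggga
Irf1, chr11:53769854-53770013, plus strand: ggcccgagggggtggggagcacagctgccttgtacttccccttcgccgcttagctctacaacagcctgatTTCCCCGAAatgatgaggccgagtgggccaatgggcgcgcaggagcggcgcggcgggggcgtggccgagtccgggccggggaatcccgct
Psmb8, chr17:34198035-34198194, plus strand: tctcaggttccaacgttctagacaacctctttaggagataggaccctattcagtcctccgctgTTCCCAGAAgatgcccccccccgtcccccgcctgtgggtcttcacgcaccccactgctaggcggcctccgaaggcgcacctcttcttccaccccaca

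In Isg15 the ISRE core matched at 3 overlapping places in 1 run, from base -78 counted back from the start, and in Ifit1 at 2 separate places, from bases -104 and -85. Bst2 had 2 overlapping ISRE matches with a GAS match running into them. Irf1 and Psmb8 had a GAS match and no ISRE core in the windows searched. Psmb9 and Tap1 are divergent neighbours in the major histocompatibility region, and the 225 bases between their starts, shown as the stretch both genes share, held neither motif.
Tap1 and Psmb9, chr17:34187331-34187555, plus strand: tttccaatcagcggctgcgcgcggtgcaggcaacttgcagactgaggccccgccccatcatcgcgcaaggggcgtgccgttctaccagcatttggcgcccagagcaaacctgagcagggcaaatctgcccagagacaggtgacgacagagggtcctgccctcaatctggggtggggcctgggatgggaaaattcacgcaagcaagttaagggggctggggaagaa

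Among the genes known for the strongest induction by type I interferon, several had signals at or under the background of the arrays in both genotypes. Background was taken as the median of the 5222 negative-control rows of each array, which lay between 5.27 and 5.62. Of the 41 genes, 30 lay above it on all 9 arrays, 8 on some arrays, and Mx1, Mx2 and Ifit3 on 0 of the 9. Under a harder limit, the 95th percentile of those rows (8.76 to 9.34), Ifitm1 and Ifitm3 were above on all arrays, Psmb9 on 8 and Psmb8 on 3. The other 37 genes exceeded that limit on 0 of the 9 arrays.

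**Figure D1:**
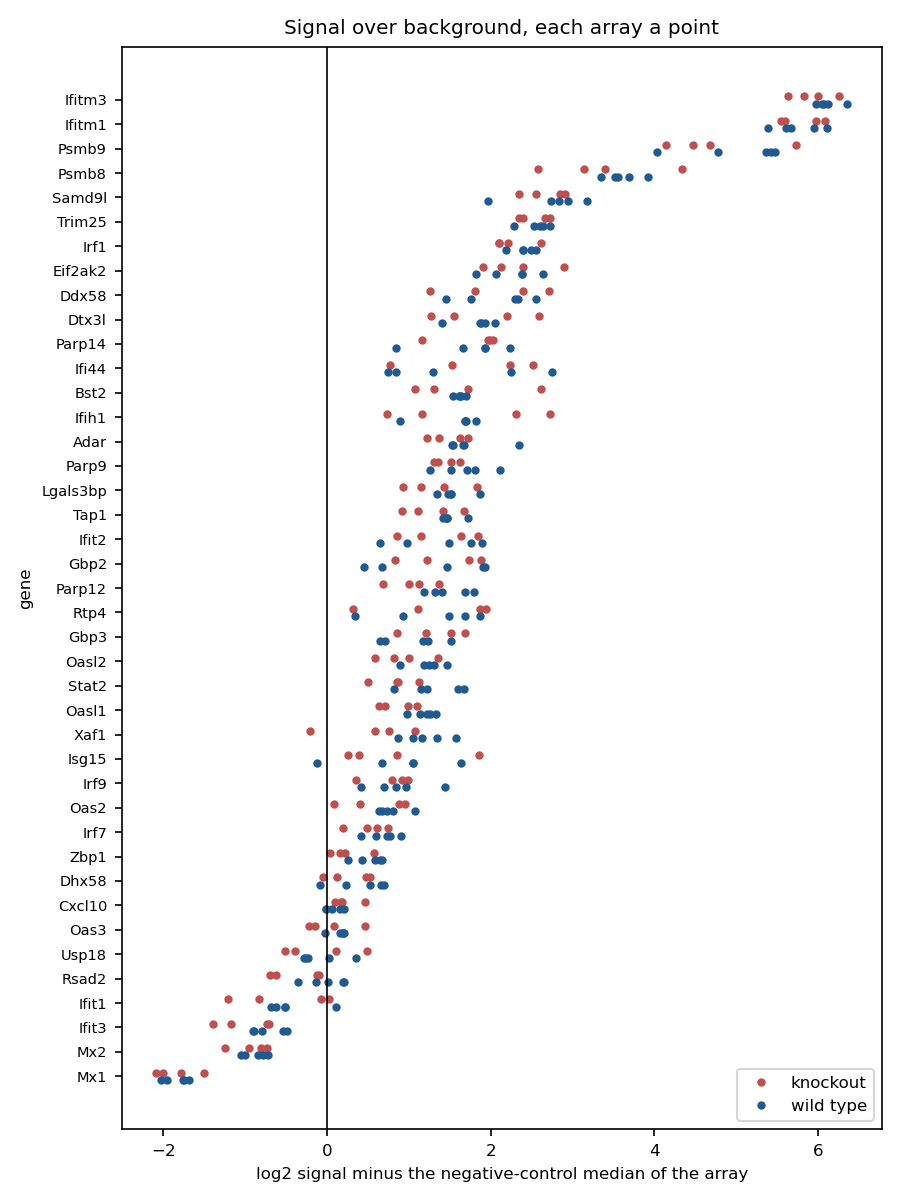
Log2 signal minus the negative-control median of the same array (x axis) for the 41 interferon-stimulated genes (y axis), with 1 point for each knockout array (red, upper) and wild-type array (blue, lower) of the 9-array table. Ifitm3, Ifitm1 and Psmb9 lie furthest above 0 and Ifit3, Mx2 and Mx1 below 0 on all 9 arrays.

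Mx1, an antiviral GTPase whose promoter drives the Cre of these mice, had 3.77, 3.53, 3.57 and 3.54 in knockout replicates 2 to 5, against 3.41, 3.64, 3.57, 3.54 and 3.48 in wild-type replicates 2 to 6. All of these values lay at least 1.5 under the negative-control median of their array. The endogenous Mx1 and Mx2 genes of C57BL/6 mice are known to be defective, and the row does not read the transgene's Cre. Usp18, the peptidase that removes ISG15 from proteins and restrains the receptor, had 5.76, 5.23, 5.07 and 5.43 in knockout, against 5.72, 5.35, 5.07, 5.06 and 5.23 in wild type. It exceeded background on 4 of 9 arrays. Ifit1, which binds viral RNA caps, exceeded it on 2 and Rsad2, which makes a chain-terminating nucleotide, on 3. Ifit1 and Rsad2 carry the ISRE cores printed above, which says nothing of whether a factor was bound.

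The interferon level of an array was read as the median, over the 41 genes, of the gene's value minus its own mean over the 9 arrays. It was 0.0, -0.13, -0.14 and 0.1 in knockout replicates 2 to 5, and 0.17, 0.03, -0.02, -0.08 and 0.1 in wild-type replicates 2 to 6. Wild-type replicate 2 was highest and knockout replicate 4 lowest, and the genotypes overlapped. The same median over all 28944 tested rows lay between -0.01 and 0.03 on every array. Counts above the gene's own mean were read over the 31 genes whose mean exceeded the median row level of 5.99, beside the share of all 14472 rows above that level. Knockout replicate 5 had 26 of 31, against 63.4% of rows, wild-type replicate 2 had 26, against 56.2%, and wild-type replicate 6 had 26, against 61.0%. Knockout replicates 3 and 4 had 9 and 7, against 49.2% and 46.7%, and wild-type replicate 5 had 9, against 46.3%.

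The arrays that stood high did so through partly different genes. Of the same 31 genes, knockout replicate 5 had 6 more than 0.5 above their own mean (Ddx58, Ifih1, Bst2, Psmb8, Psmb9 and Rtp4), against 4.45% of rows. Wild-type replicate 6 had 5 (Ddx58, Psmb8, Psmb9, Rtp4 and Ifi44), against 3.25% of rows. Wild-type replicate 2 also had 5, but they were Isg15, Irf9, Ifi44, Gbp2 and Xaf1, against 3.95% of rows. Knockout replicate 2 had 3 (Ifi44, Ifih1 and Dtx3l), against 5.22%. At the low end, wild-type replicate 5 had 10 of the 31 more than 0.5 below their mean, among them Ifi44, Ifih1, Psmb9 and Rtp4, against 11.5% of rows. Knockout replicate 4 had 4 (Ddx58, Ifih1, Psmb8 and Psmb9), against 3.12%.

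**Figure D2:**
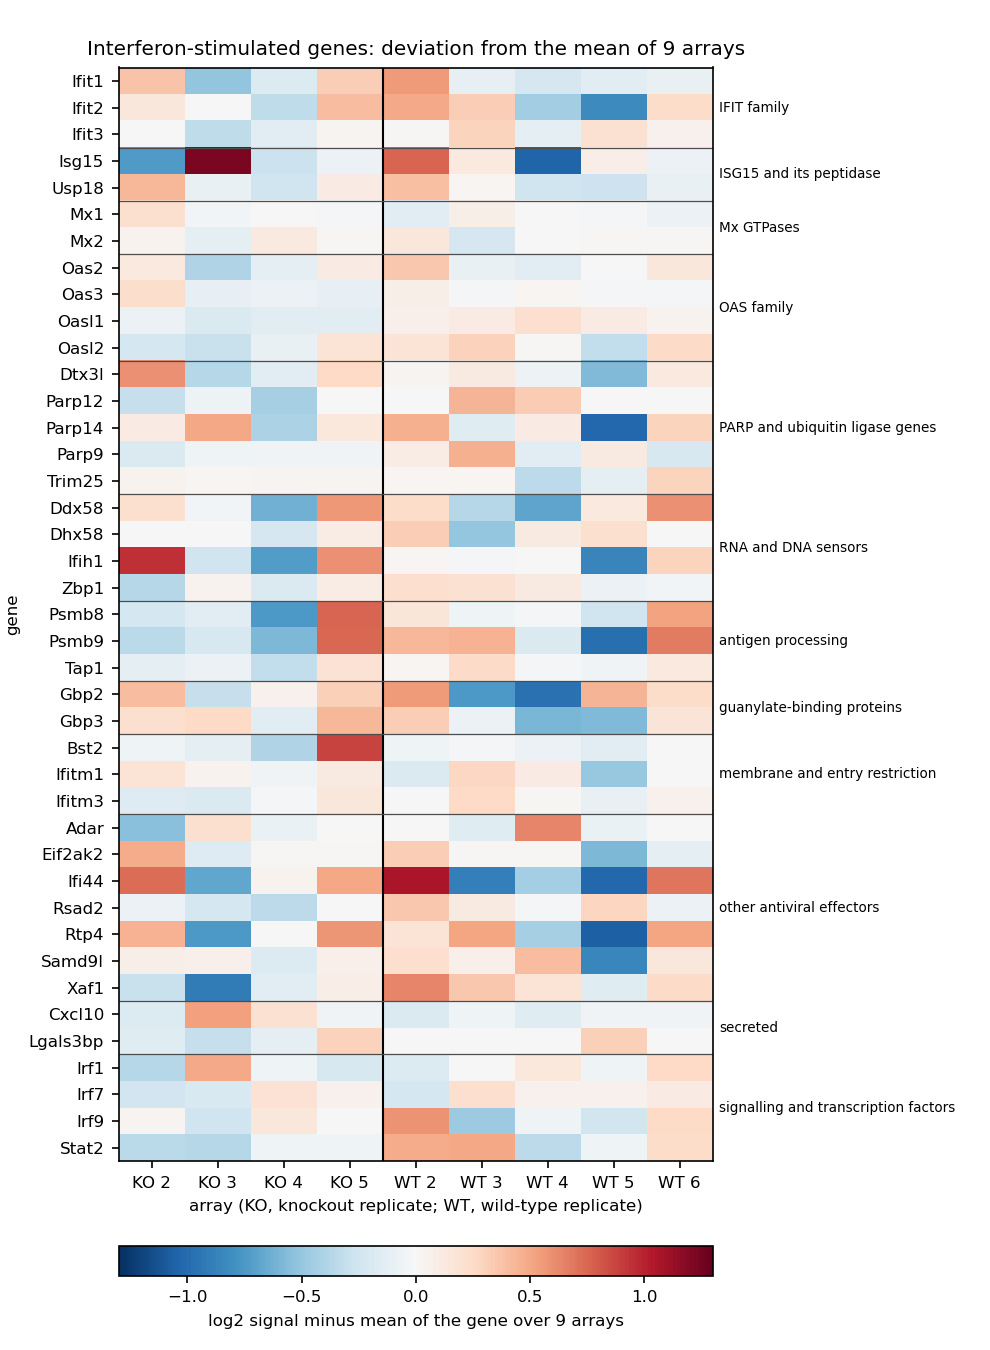
Map of the log2 signal of each of the 41 genes (rows, grouped by role) minus its mean over the 9 arrays, with knockout arrays left of the black line and wild-type arrays right of it; red is above and blue below the gene's mean. The columns of knockout replicate 5 and wild-type replicates 2 and 6 are mostly red, and those of knockout replicates 3 and 4 and wild-type replicate 5 mostly blue.

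Ly6a encodes Sca-1, the interferon-induced surface protein used for the sort. It had 7.95, 6.57, 7.28 and 8.54 in knockout replicates 2 to 5, against 8.29, 7.59, 7.56, 6.85 and 8.07 in wild-type replicates 2 to 6. Knockout replicate 5 and wild-type replicate 2 were highest, and knockout replicate 3 and wild-type replicate 5 lowest. Hbb-b1, the adult beta globin of red cells, had 9.25, 7.1, 7.08 and 10.59 in knockout, against 9.91, 6.39, 7.22, 7.43 and 10.68 in wild type. The 4 arrays highest in Hbb-b1, knockout replicates 2 and 5 and wild-type replicates 2 and 6, were also the 4 highest in Ly6a. Of the 41 genes, 5 had the same 4 arrays highest (Ifit1, Oas2, Ifi44, Ddx58 and Ifih1), against 3.8% of all rows, and the other members, Isg15, Gbp2, Rtp4 and Parp14 among them, did not. The highest interferon levels were those of wild-type replicate 2 (0.17), knockout replicate 5 (0.1) and wild-type replicate 6 (0.1), all among those 4 arrays. Knockout replicate 2, the remaining one, had 0.0, below wild-type replicate 3 (0.03). Whether globin-carrying cells or another feature of those arrays had a part in the interferon values was not tested. In bulk RNA, fewer cells of a type and less RNA per cell cannot be told apart.

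**Figure D3:**
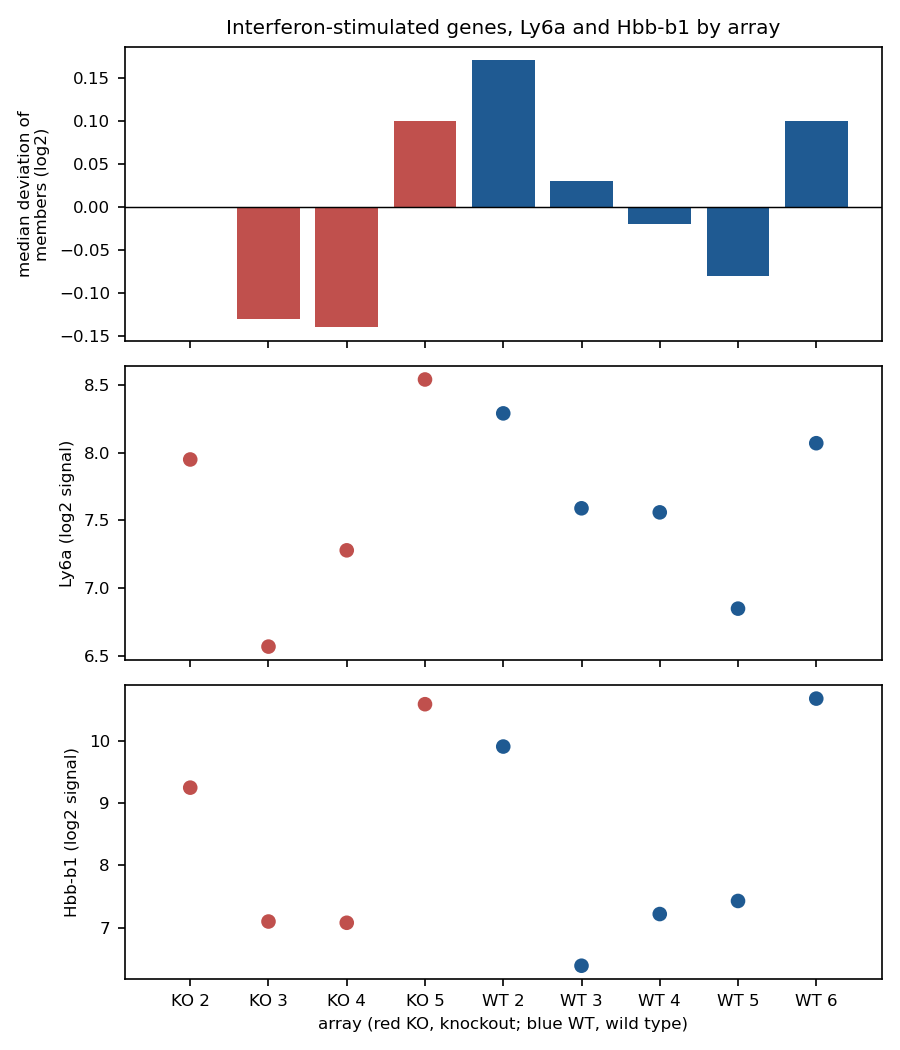
By array (x axis; red, knockout replicates 2 to 5; blue, wild-type replicates 2 to 6): the median over 41 genes of the deviation from the gene's mean (top, bars from 0), the log2 signal of Ly6a (middle) and of Hbb-b1 (bottom). Knockout replicates 2 and 5 and wild-type replicates 2 and 6 hold the 4 highest points of Ly6a and of Hbb-b1.

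Markers of other lineages differed between the same arrays. Vpreb1, the surrogate light chain of early B cells, had 9.85, 6.9, 7.08 and 10.12 in knockout, against 10.16, 5.93, 6.44, 7.21 and 11.62 in wild type. Flt3, the receptor of multipotent and lymphoid-primed progenitors, had 9.25, 8.1, 8.9 and 9.38 in knockout, against 9.51, 8.34, 8.79, 7.83 and 9.34 in wild type. Both were highest in the 4 arrays high in Hbb-b1. Elane, the neutrophil elastase of granulocyte precursors, had 5.33, 8.17, 6.53 and 6.28 in knockout, against 5.56, 7.02, 7.1, 6.67 and 5.9 in wild type, lowest in those 4 arrays. Pf4, of megakaryocytes, had 6.79, 10.72, 10.35 and 8.95 in knockout, against 8.12, 10, 10.54, 9.02 and 9.07 in wild type. Other genes of the same lists went other ways. Klf1, of the erythroid list, had 5.83, 6.44, 6.66 and 5.67 in knockout, against 5.7, 6.39, 6.23, 6.09 and 6 in wild type. It was lowest in the 4 arrays high in Hbb-b1. S100a9, of the neutrophil list, had 8.15, 8.03, 6.37 and 9.12 in knockout, against 8.12, 7.1, 6.68, 6.57 and 8 in wild type. It stood high in those 4 arrays and in knockout replicate 3. The part of these markers in the interferon values was not tested.

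All 10 markers of the LSK gate and of early progenitors lay above background on all 9 arrays. Means of 11 B cell markers ranged over 5.52 to 5.95 in knockout and 5.55 to 6.75 in wild type, highest in wild-type replicate 6, and Ms4a1 lay under background throughout. Erythroid markers ranged over 6.73 to 7.32 in knockout and 6.53 to 7.39 in wild type. Markers of plasmacytoid dendritic cells, known producers of interferon, ranged over 6.37 to 6.75 in knockout and 6.49 to 6.73 in wild type. That list holds Bst2, one of the 41 genes, and its other 7 genes ranged over 6.28 to 6.61 in knockout and 6.42 to 6.69 in wild type. Neutrophil lists ranged over 6.35 to 7.3 in knockout and 6.38 to 6.68 in wild type, and megakaryocyte lists over 6.58 to 7.6 in knockout and 6.82 to 7.38 in wild type. The list of mast cells, basophils and eosinophils ranged over 5.78 to 6.81 in knockout and 5.63 to 6.38 in wild type. Means of T and NK cell markers (5.27 to 5.44 in knockout and 5.29 to 5.4 in wild type) lay close to background. So did those of stromal and endothelial markers (5.67 to 5.76 in knockout and 5.72 to 5.8 in wild type). Of the 11 T and NK cell markers, 4 lay above background on all 9 arrays and 5 under it on all 9. Of the 7 stromal and endothelial markers, 3 lay above it on all 9 and 3 under it on all 9. Those above were Pecam1, by 1.89 to 2.5, Col1a1, by 1.1 to 1.71, and Col1a2, by 0.72 to 1.52. Of 10 monocyte and macrophage symbols, among which Adgre1 and Emr1 name 1 gene, 4 lay under background on every array, Csf1r among them. Xist, made from the inactive X chromosome of females, and Y-linked signal occurred together in 3 arrays, so results are also given without them. These were knockout replicates 2 and 5 and wild-type replicate 6. All 3 were among the 4 arrays highest in Hbb-b1 and in Ly6a, and what this has to do with the interferon values was not tested. Knockout replicates 3 and 4 carried Xist alone, as did wild-type replicate 5, and wild-type replicates 2, 3 and 4 carried Y-linked signal alone. Sex was thus unevenly spread over the genotypes, and its part in the differences was not tested. Klf5, the targeted gene, averaged 6.69 ± 0.08 over 4 knockout arrays and 6.89 ± 0.11 over 5 wild-type arrays (mean ± SD), without overlap. Whether its probes lie in the deleted part was not checked, so this row is no test of the labels.

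Set against wild type, the knockout did not differ in any of the 41 genes after adjustment. In limma over all 28944 rows, 0 of 41 passed an adjusted p under 0.05, as did 0.0% of all rows, and the lowest adjusted p of a member was 0.916. Unadjusted, 4 of 41 had a p under 0.05, namely Oasl1, Parp12, Xaf1 and Rsad2, against 4.08% of all rows. All 4 were lower in knockout, a side that held 2.63% of all rows, and 0 of 41 were higher, against 1.45%. The median difference over the 41 genes was -0.03 (19 higher and 22 lower in knockout), against -0.02 over all rows, of which 55.9% were lower. Leaving out knockout replicate 5 gave -0.103 and knockout replicate 4 gave 0.003, while leaving out wild-type replicate 5 gave -0.089 and wild-type replicate 2 gave 0.045. With 1 array left out, the median over all rows stayed between -0.028 and -0.009. Array weights gave -0.106, with 31 of 41 lower, against -0.013 over all rows. The methods' t-test on the same values gave the same 4 genes unadjusted and 0 after Benjamini-Hochberg adjustment. For 36 of the 41 genes the 95% interval of the difference lay within 1 log2 unit (a 2-fold change) of 0 on either side. The labels do not say that arrays are separate animals, so these tests measure the spread between samples, which may be partly technical.

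**Figure D4:**
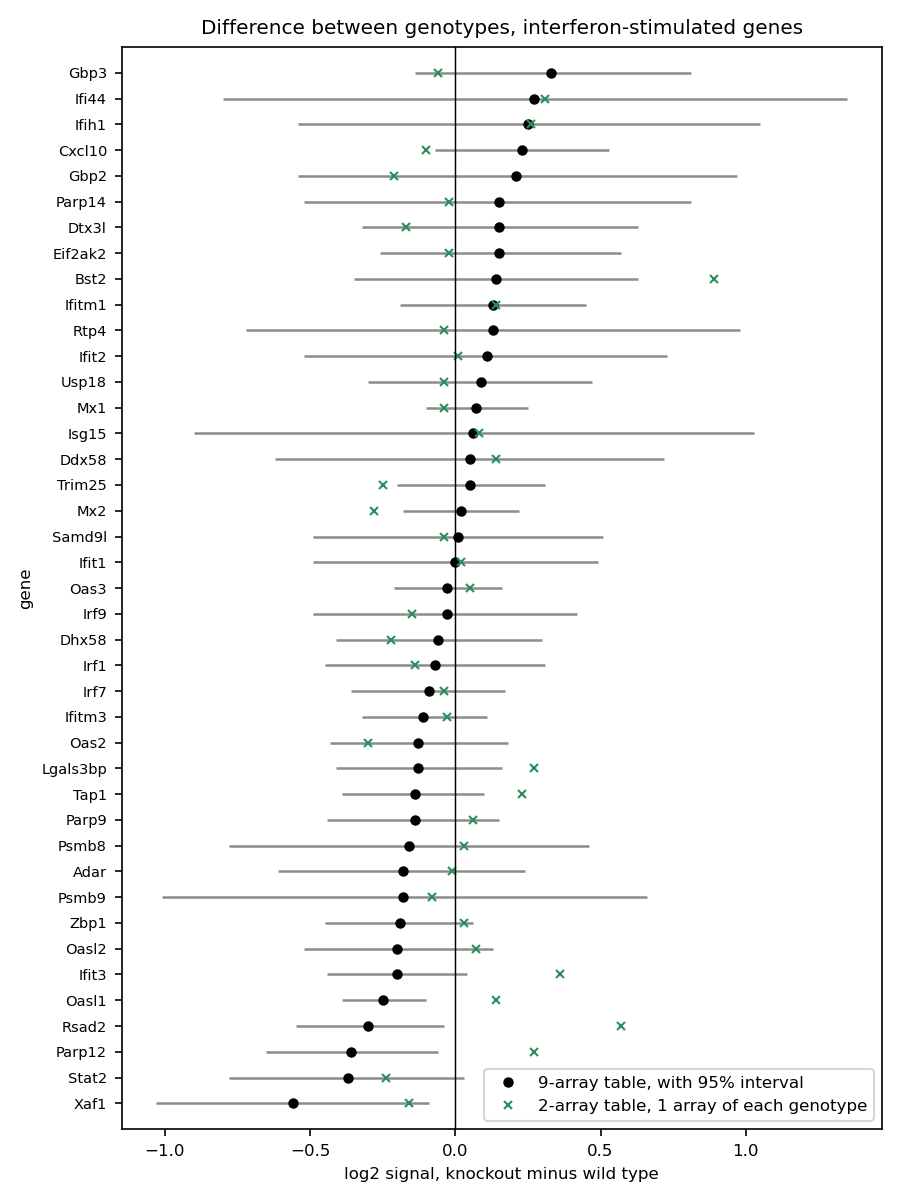
Log2 difference, knockout minus wild type, for each of the 41 genes (y axis): black points with 95% limma intervals are the 4 knockout and 5 wild-type arrays, and green crosses are the separately normalized pair of arrays, which has no replicate. The points run from -0.56 for Xaf1 to 0.33 for Gbp3, and 37 intervals span 0.

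Xaf1, a protein known to promote cell death, had 6.03, 5.41, 6.17 and 6.4 in knockout replicates 2 to 5, against 6.95, 6.67, 6.49, 6.16 and 6.56 in wild-type replicates 2 to 6. Knockout replicate 3 was lowest and lay under background, and wild-type replicate 5 fell among the knockout values. The difference was -0.56 (95% interval -1.03 to -0.09, limma adjusted p = 0.916). Parp12, a mono-ADP-ribosyltransferase, had 6.39, 6.62, 6.26 and 6.69 in knockout, against 6.69, 7.13, 7.02, 6.69 and 6.69 in wild type. Its groups did not overlap, though knockout replicate 5 and 3 wild-type arrays agreed to 2 decimals, and the difference was -0.36 (-0.65 to -0.06).

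Oasl1, a member of the OAS family known in mouse to hold back Irf7 translation, had 6.37, 6.25, 6.29 and 6.31 in knockout, against 6.51, 6.55, 6.66, 6.55 and 6.49 in wild type. This was the narrowest pair of groups, without overlap, and the difference was -0.25 (-0.39 to -0.1). Groups did not overlap in 2 of 41 genes (Oasl1 and Parp12), against 0.985% of all rows, and in 4 without knockout replicate 5, where 4.28% of all rows did so. Rsad2 had 5.15, 4.99, 4.88 and 5.22 in knockout, against 5.57, 5.34, 5.2, 5.5 and 5.15 in wild type. Wild-type replicates 4 and 6 lay among the knockout values, and all knockout values lay under background. The count of 4 genes at unadjusted p under 0.05 was 2 without knockout replicate 3 (2.76% of all rows), knockout replicate 4 (3.78%) or wild-type replicate 2 (4.96%), and 6 without knockout replicate 5 (5.87%). Without the 3 arrays that carry both Xist and Y-linked signal it was 5, against 6.39% of all rows, with 0 past adjustment. The median difference there was -0.148, with 30 of 41 lower, against -0.036 over all rows. Groups did not overlap in 8 genes, against 15.4% of all rows. That comparison sets 2 knockout arrays with Xist alone against 4 wild-type arrays, of which 3 carry Y-linked signal alone, so it is the most uneven in sex.

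The factors of the pathway came first in the order of its action. Stat2, the ISGF3 subunit that brings the transactivation domain, had 6.14, 6.12, 6.44 and 6.44 in knockout, against 6.97, 7, 6.15, 6.44 and 6.73 in wild type. The groups overlapped, and the difference was -0.37 (-0.78 to 0.03). Irf7, the factor that amplifies interferon-alpha production, had 5.76, 5.81, 6.19 and 6.06 in knockout, against 5.78, 6.23, 6.06, 6.06 and 6.11 in wild type. Its range over the 9 arrays was 0.47, and 76.3% of rows above the median level had a wider one. Irf9 and Irf1 differed by -0.03 and -0.07, and the second row of Irf1 by 0.09.

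Isg15 had the widest range of the 41 genes, 2.27, where 2.78% of rows above the median level had a wider one. This ubiquitin-like protein is joined to others in infected cells. It had 5.52, 7.48, 5.97 and 6.18 in knockout, against 7.01, 6.38, 5.21, 6.34 and 6.18 in wild type. Knockout replicate 3 was highest and wild-type replicate 4, under background, lowest, and Usp18 was not high in knockout replicate 3. The difference was 0.06 (-0.9 to 1.03), so a change of up to about 2-fold in either direction lies within the interval.

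Ifi44, a cytoplasmic antiviral protein, had 7.79, 6.39, 7.11 and 7.56 in knockout, against 8.12, 6.17, 6.62, 6.04 and 7.76 in wild type. Wild-type replicate 2 was 2.09 above wild-type replicate 5, the largest spread after Isg15, and the groups overlapped through their whole range. The difference was 0.27 (-0.8 to 1.35). Rtp4, an interferon-induced chaperone of receptors, had 7.14, 5.94, 6.69 and 7.26 in knockout, against 6.86, 7.2, 6.26, 5.63 and 7.2 in wild type. Here wild-type replicate 3 stood with the high arrays, in contrast to Ifi44. Samd9l, a restriction factor of myeloid cells, had 8.18, 8.17, 7.93 and 8.17 in knockout, against 8.32, 8.17, 8.51, 7.26 and 8.25 in wild type, with wild-type replicate 5 alone far below. Eif2ak2, the RNA-dependent kinase PKR, differed by 0.15 and Adar, the RNA-editing enzyme, by -0.18.

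Of the cytosolic sensors, Ddx58 and Ifih1 varied most. Ddx58, which encodes the RNA sensor RIG-I, had 7.67, 7.43, 6.84 and 8.03 in knockout, against 7.7, 7.09, 6.78, 7.59 and 8.06 in wild type. Ifih1, which encodes MDA5, the sensor of long double-stranded RNA, had 7.99, 6.78, 6.31 and 7.63 in knockout, against 7.06, 7.01, 7.03, 6.18 and 7.33 in wild type. Knockout replicates 2 and 5 and wild-type replicate 6 held the 3 highest values of Ifih1. Wild-type replicate 5 was lowest in Ifih1 and not in Ddx58, where wild-type replicate 4 was lowest. The differences were 0.05 (-0.62 to 0.72) for Ddx58 and 0.25 (-0.54 to 1.05) for Ifih1. Dhx58, which encodes the partner LGP2, and Zbp1, a sensor of Z-form nucleic acid, stayed within 0.82 and 0.6 over the arrays and close to background.

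Psmb9 and Psmb8 were further above background than Tap1, the other antigen-processing gene. Psmb9, an immunoproteasome subunit, had 9.95, 10.09, 9.72 and 11.05 in knockout, against 10.73, 10.75, 10.11, 9.32 and 10.98 in wild type. Psmb8, its partner subunit, had 8.67, 8.76, 8.16 and 9.66 in knockout, against 9.06, 8.85, 8.89, 8.64 and 9.43 in wild type. Knockout replicate 5 and wild-type replicate 6 were the 2 highest arrays in both genes. The differences were -0.18 (-1.01 to 0.66) and -0.16 (-0.78 to 0.46). Tap1, the peptide transporter that shares its upstream stretch with Psmb9, had 6.49 to 6.99 in knockout and 6.76 to 7.05 in wild type, 0.91 to 1.72 over the negative-control median. Its range over the 9 arrays was 0.56, against 1.73 for Psmb9.

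**Figure D5:**
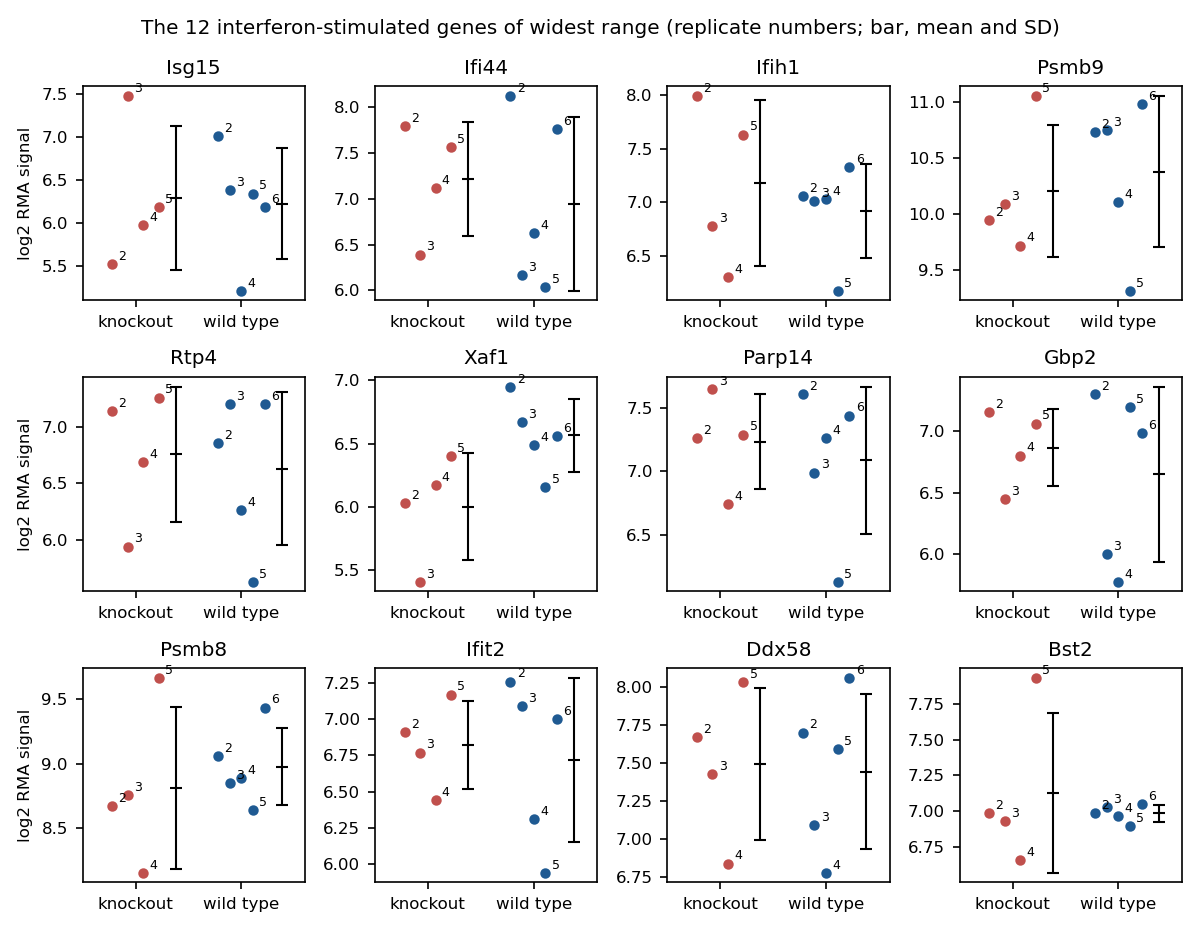
Log2 RMA signal (y axis, not starting at 0) of the 12 genes of widest range over the 9 arrays among those above the median row level; points are arrays with their replicate number, knockout left of wild type, and the bar beside each group is the mean with its SD. The genotypes overlap in all 12 genes.

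Gbp2 and Gbp3 encode guanylate-binding proteins that attack pathogen vacuoles. Gbp2 had 7.15, 6.45, 6.8 and 7.06 in knockout, against 7.3, 6, 5.78, 7.19 and 6.98 in wild type, where wild-type replicates 3 and 4 lay lowest of all arrays. Gbp3 had the largest positive difference of the 41 genes, 0.33 (-0.14 to 0.81), and its values overlapped. Bst2, the tetherin that holds virions at the membrane, had 6.99, 6.93, 6.66 and 7.93 in knockout, against 6.99, 7.03, 6.97, 6.9 and 7.05 in wild type. Knockout replicate 5 alone stood high, and without it the difference changed to -0.128, against 0.14 with it. Ifitm1 and Ifitm3, which block virus entry, averaged 11.25 ± 0.10 and 11.38 ± 0.15 over the knockout arrays, and 11.12 ± 0.29 and 11.48 ± 0.13 over the wild-type arrays (mean ± SD).

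Ifit2, the IFIT gene with signal above background on all 9 arrays, had 6.91, 6.77, 6.44 and 7.17 in knockout, against 7.26, 7.09, 6.31, 5.94 and 7 in wild type. Its difference was 0.11 (-0.52 to 0.73). Ifit3 shares near-identical sequence with its neighbour Ifit3b, so its low row may mix both. Parp14, an ADP-ribosyltransferase that lies in a cluster with Parp9 and Dtx3l, had 7.26, 7.65, 6.74 and 7.29 in knockout, against 7.61, 6.99, 7.26, 6.13 and 7.44 in wild type. Wild-type replicate 5 was lowest in both Parp14 and Dtx3l, and not in Parp9, where it had 7.1. Of the secreted products, Cxcl10, a chemokine for T cells, differed by 0.23 (-0.07 to 0.53), and Lgals3bp by -0.13.

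Other genes of the pathway, from lists that follow its textbook order, were also without a call. Of 97 genes listed, 93 were measured on 92 rows, as Gbp6 and Gbp7 fall on the same row. In limma 0 of the 92 passed adjustment, and 5 had an unadjusted p under 0.05, 1 higher and 4 lower in knockout, against 4.08% of all rows. Their median difference was 0.01, with 47 higher and 45 lower. Of 20 type I and III interferon genes, 14 were lower in knockout, among them Ifna5, at 6.76, 6.63, 7.01 and 7.05 in knockout and 7.13, 7.16, 7.12, 7.29 and 7.05 in wild type. Ifnb1 had 4.32, 3.91, 4.21 and 4.18 in knockout, against 4.32, 4.39, 4.67, 4.52 and 4.35 in wild type, a difference of -0.3. Ifna13 had 4.11, 4.22, 3.67 and 3.91 in knockout, against 4.37, 4.34, 4.75, 4.42 and 4.19 in wild type, a difference of -0.44. Both genes lay under background on all 9 arrays, and the genotypes overlapped in all 3. The interferon-alpha genes are close paralogs on chromosome 4, and their rows may share probes.

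Of 11 genes for receptors and JAK-STAT proteins, 0 had an unadjusted p under 0.05 in limma. Ifnar1 had 7.87, 7.21, 7.34 and 7.34 in knockout, against 7.61, 7.34, 7.03, 6.74 and 7.34 in wild type. Its partner Ifnar2 had 9.31, 9.45, 9.55 and 9.42 in knockout, against 9.5, 9.28, 9.42, 9.15 and 9.42 in wild type. The genotypes overlapped in both, with differences of 0.23 (-0.2 to 0.66) and 0.08 (-0.12 to 0.28). Irf2, which competes with Irf1 for its sites, was the single pathway gene higher at unadjusted p under 0.05, by 0.4 (0.08 to 0.72, limma adjusted p = 0.916). It had 9.78, 9.38, 9.71 and 9.72 in knockout, against 9.49, 9.46, 9.14, 8.86 and 9.29 in wild type, and knockout replicate 3 lay among the wild-type values. Of 43 measured genes in the list of further interferon targets, 25 were higher and 18 lower in knockout. Ifi35, a partner of Nmi, was the member of that list at unadjusted p under 0.05. It had 6.34, 6.18, 6.17 and 6.38 in knockout, against 6.59, 6.54, 6.81, 6.24 and 6.82 in wild type, where wild-type replicate 5 lay among the knockout values, with a difference of -0.33 (-0.61 to -0.05).

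In the separately normalized pair the same genes were placed against their own background. Of 41 genes, 36 lay above the negative-control median in knockout replicate 1 and 35 in wild-type replicate 1, and Mx1, Mx2 and Ifit3 were again among those below. The median difference was -0.02, and 17 of 41 genes had the same sign as in the 9-array table. Bst2 had the largest difference of the pair, at 8.37 in knockout and 7.48 in wild type. Of the 4 genes at unadjusted p under 0.05 in the 9 arrays, Xaf1 kept its sign, with 7.09 in knockout and 7.25 in wild type. Rsad2, Parp12 and Oasl1 had the opposite one, by 0.57, 0.27 and 0.14.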

How the data were processed

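Per the labels' protocols, LSK cells were sorted by flow cytometry and total RNA was biotin-labelled. The authors deposited log2 RMA signals, gene-level with default settings per the file headers and made with Affymetrix Expression Console per the submitters' processing notes. The sources used here give no version of it. Each RMA column equalled 1 column of the deposited value table within 0.0001, which gave its replicate number. Control rows (6612 of 35556) were left out, leaving 28944. Differences are knockout minus wild type from limma 3.58.1 in R 4.3.3 (lmFit, eBayes, two-sided, Benjamini-Hochberg over all rows, threshold 0.05) on the 9 arrays, without a replicate block. The members, lists and tests were chosen with earlier results of these data known. Values in every array are given for the 12 members of widest range above the median row level, members and pathway genes at unadjusted p under 0.05, and Mx1, Irf7, Isg15, Stat2, Usp18 and Ly6a. Ifnar1 and Ifnar2 were also fixed, with Klf5, Hbb-b1 and Xist as checks of the arrays. Samd9l, Vpreb1, Flt3, Elane, Pf4, Klf1 and S100a9 were added after their values were seen. Some genes under the rule are not reported here. The fit was tested on simulated data. Arrays carry no read depth, so their number limits the precision. Promoters are from RefSeq on GRCm38.p6. No coordinates were taken from the files, whose annotation uses NCBIM37. Alternatives were other scalings, the value table, all 11 arrays, a dim-row filter, variance models, array weights, second rows, a replicate block, left-out arrays and the methods' t-test.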

Additional observations from a re-analysis of the deposited data

Results flagged for a closer look

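The 41 genes, 8 further pathway genes (Ifnar1, Ifnar2, Ly6a, Ifna5, Ifna13, Ifnb1, Irf2 and Ifi35) and the median interferon level were screened within each genotype for a single array set apart by a wide gap. This was met in 10 of 100 groups, all of them of the 41 genes, and about 5 (1 in 20) were taken as met by chance. Several of the flagged groups hold arrays of near-equal value, where a small gap counts as wide, and the groups share arrays. The 10 are thus not shown to exceed chance. In wild-type replicate 5, Ifih1 (6.18, next 7.01), Dtx3l (6.69, next 7.2) and Samd9l (7.26, next 8.17) stood low and Lgals3bp stood high at 7.16, next 6.85. In knockout replicate 2, Oas3 (5.73, next 5.43) and Mx1 (3.77, next 3.57, under background) stood high and Parp9 low at 6.79, next 6.93. Wild-type replicate 2 was high in Ifit1 at 5.48, next 4.83, wild-type replicate 4 high in Adar at 7.67, next 7.04, and knockout replicate 4 low in Samd9l at 7.93, next 8.17.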

How the results depend on the processing

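In limma no setting called a row, and the lowest adjusted p of a member was 0.76, without the 3 arrays that carry both Xist and Y-linked signal. The count of members at unadjusted p under 0.05 (4) was 0 under the dim-row filter, which kept 3 members (2.21% of the rows kept). It was 2 to 6 with 1 array left out (2.76% to 5.87% of rows). The count without overlap (2) was 1 after median centring (1.56% of rows) and 0 under the filter (1.45% of the rows kept). With all 11 arrays it was 0 (0.0173% of rows, so that 0 says nothing of the members). It was 8 without the 3 arrays (15.4%) and 2 to 4 with 1 array left out (1.26% to 4.28%). The median difference was -0.148 without the 3 arrays (all rows -0.036) and 0.008 after median centring (all rows 0.015). It was -0.103 to 0.045 with 1 array left out (all rows -0.028 to -0.009). By the 95th percentile 2 members were above background. The pathway count (5) was 3 with 11 arrays (3.25% of rows), 1 under the filter (2.21% of the rows kept) and 8 with array weights (4.28%).

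Directions turned in several genes, including Ifi44 and Ifih1, which had 2 of the 3 largest positive differences. With median centring these were Ifit1 (0.033), Irf9 (0.000) and Oas3 (0.008); with quantile normalization Ifit1 (0.026), Irf9 (0.016), Oas3 (0.017), Trim25 (-0.008) and Samd9l (-0.045); with 11 arrays Ifit1 (0.003), Mx2 (-0.032) and Trim25 (-0.003). With array weights they were Ifit2 (-0.110), Usp18 (-0.063), Ifi44 (-0.185), Ddx58 (-0.160), Ifih1 (-0.077), Parp14 (-0.102), Dtx3l (-0.009), Rtp4 (-0.098) and Samd9l (-0.134). The second row of Irf1 gave 0.088. Without the 3 arrays they were Ifit2 (-0.044), Irf1 (0.241), Usp18 (-0.148), Ddx58 (-0.155), Ifih1 (-0.276), Bst2 (-0.178), Dtx3l (-0.136), Eif2ak2 (-0.021), Rtp4 (-0.170) and Samd9l (-0.013). The causes were not tested.

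With 1 array left out, differences ran over -0.125 to 0.17 (Ifit1), -0.089 to 0.24 (Ifit2), -0.334 to 0.319 (Isg15), -0.157 to 0.109 (Irf9), -0.241 to 0.044 (Irf1), -0.107 to 0.005 (Oas3), -0.043 to 0.195 (Usp18), -0.13 to 0.267 (Ddx58), -0.015 to 0.545 (Ifih1), -0.192 to 0.014 (Dhx58), -0.028 to 0.071 (Mx2), -0.128 to 0.296 (Bst2), -0.002 to 0.376 (Gbp2), -0.091 to 0.312 (Parp14), -0.015 to 0.307 (Dtx3l), -0.024 to 0.133 (Trim25), -0.443 to 0.058 (Psmb8), -0.121 to 0.403 (Rtp4), -0.197 to 0.114 (Samd9l) and -0.406 to 0.253 (Ly6a).

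Deviations of same-numbered arrays correlated at 0.133, 0.11, 0.12 and -0.242, and those of arrays with different numbers at -0.247 to 0.404. As the first lie within the spread of the second, they do not settle whether the numbers pair the samples. The 0.404 was for knockout replicate 5 with wild-type replicate 6, and the -0.242 for knockout replicate 5 with wild-type replicate 5. A replicate block joins arrays of the same number, so wild-type replicate 6 has no knockout partner in it. With the replicate block 3 members (Oasl1, Rsad2 and Parp12) had an unadjusted p under 0.05, against 5.27% of rows, and Irf9 (0.026) and Ly6a (0.012) turned direction. Signal over background limits most of all the 11 members not above it on every array. By the harder limit, the 95th percentile of the control rows, 37 of the 41 were above background on 0 arrays. Another background correction and the slide or scan date were not run, as scanner files were not used here.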

Other observations

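Irgm1 and Ifi203, from the list of further interferon targets, varied over the arrays more widely than any of the 41 genes, and were picked after their values were seen. Irgm1, an immunity-related GTPase, had 6.82, 6.59, 5.93 and 7.03 in knockout replicates 2 to 5, against 8.07, 5.71, 6.23, 6.66 and 7.58 in wild-type replicates 2 to 6, a range of 2.36. Ifi203, a nuclear HIN-200 protein, had 9.89, 8.53, 8.52 and 9.35 in knockout, against 9.58, 8.09, 7.59, 7.95 and 9.52 in wild type, a range of 2.29. In both genes knockout replicates 2 and 5 and wild-type replicates 2 and 6 held the 4 highest values, and the genotypes overlapped. The same 4 arrays were also highest in Ifi27, Irgm2, Iigp1, Gbp5, Trim21, Trim30a, Trim34a and Herc6. So they were in Slfn5, Ddx60, Sp100, Epsti1, Ly6a and the shared row of Gbp6 and Gbp7. Others of the 43 measured genes of that list, Isg20 and Ly6e among them, did not have these arrays highest. Over all tested rows, 3.8% had these 4 arrays highest. In 9 of the 41 genes at least 3 arrays had exactly the same deposited value, as in 32.1% of all tested rows.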
